A study of Mus musculus with 63 samples.

Results

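Ovaries of female C57BL/6 mice exposed to chronic unpredictable mild stress (CUMS), in which mild stressors of different kinds alternate over weeks, were compared with those of unstressed controls in the set whose titles give 2 months (2M) and 12 weeks (12W). The members were chosen by title: 4 CUMS libraries (2M-12W-Ova-CUMS) and 4 control libraries (2M-12W-Ova-Ctrl), 8 of 63 libraries in the series and of 31 from ovary. The series also holds 2M-8W, 6M-8W and 6M-12W ovaries and the matching pituitaries, and asks whether young and adult females differ along the hypothalamic-pituitary-ovarian axis. The series' design text pairs the 2-month age with 8 weeks of stress and the 6-month age with 12 weeks, whereas the titles hold all 4 combinations, so the 2M-12W set is named here as its titles name it. Both groups are labelled as ovary, and the labels name no transgene or mutation in either. The sources used here do not give the estrous stage, the time of day of collection or the batch, nor whether the stated age is that before or after stress. Nor do they say that each library came from a separate animal, and p-values then measure only the spread between these samples, which may be technical. Values are given in the order of replicates 1 to 4 and, unless stated otherwise, in CPM, counts scaled to a common library total, which do not correct for gene length and so compare samples, not genes. All comparisons are in bulk tissue, in which fewer cells of a type and less RNA per cell cannot be told apart.

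The ovary holds follicles, each an oocyte surrounded by granulosa cells and, outside them, steroid-forming theca cells. The surge of luteinizing hormone (LH) switches on a short burst of genes in granulosa cells, among them immediate early transcription factors, EGF-like ligands, prostaglandin synthase and matrix enzymes, through which the follicle ruptures. The ruptured follicle then becomes a corpus luteum, which makes progesterone. These phases follow each other within each estrous cycle, and ovarian cells also hold a circadian clock that responds to LH and to glucocorticoids.

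Total counts were 16534467 to 20542400 in CUMS libraries and 15551655 to 22789177 in controls. The ovary label held in all 8: the oocyte genes Gdf9 and Zp3, the granulosa genes Amh and Foxl2 and the steroid enzyme gene Cyp11a1 had at least 37.8 CPM in every library. Mitochondrial genes took 5.09 ± 0.67% of counts in CUMS ovaries and 5.41 ± 0.43% in controls (SD, n = 4 each; exact permutation test, two-sided, p = 0.457, the smallest possible being 0.0286). On the first principal component, with 35.2% of the variance, CUMS ovaries lay at -6.21, -27.5, -50.1 and -40.5 and control ovaries at 5.77, 42.15, 37.9 and 38.5, so that CUMS 1 and control 1 lay nearest to the other group. Of the libraries that stood apart in named genes, 3 are described first. Control 1 held pituitary transcripts. CUMS 1 held the highest interferon-induced levels and, for part of the luteal genes, levels like those of controls. Control 3 had the lowest levels of most ovulation genes among the controls and lay apart on the second component, which took 19.5% of the variance, at 57.2. Control 2 lay at the other end of that component, at -35.4. Without any other single library more genes were called than without control 2, as given below.

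Between CUMS and control ovaries 1197 of 17766 genes tested passed at a Benjamini-Hochberg adjusted p under 0.05 in edgeR's quasi-likelihood test, or 6.74% of all genes. Of these, 459 (2.58% of all genes) were higher in CUMS ovaries and 738 (4.15%) lower. Lower genes were the larger part of the strong changes, with 250 lower and 75 higher genes differing by at least 1 on the log2 scale. Among the called genes the median log2 fold was 0.52 for higher and -0.72 for lower ones, and over all genes tested it was -0.01. The groups did not overlap, all 4 CUMS libraries lying on one side of all 4 controls, for 1966 genes (11.1%), and these included 319 of the 459 higher and 454 of the 738 lower genes. The count rested on single libraries: it was 332 without control 2, 393 without CUMS 3, 598 without control 4, 697 without CUMS 2 and 776 without CUMS 4, but 2076 with CUMS 1 and control 1 left out together. The fit shares 1 estimate of the spread over the 31 ovary libraries of the 8 groups. In an edgeR fit of these 8 libraries alone no gene passed (3465 at an unadjusted p under 0.05, smallest adjusted p 0.0586), whereas DESeq2 on the same 8 called 1416. None of the calls below therefore held in the edgeR fit of the 8 libraries alone.

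**Figure D1:**
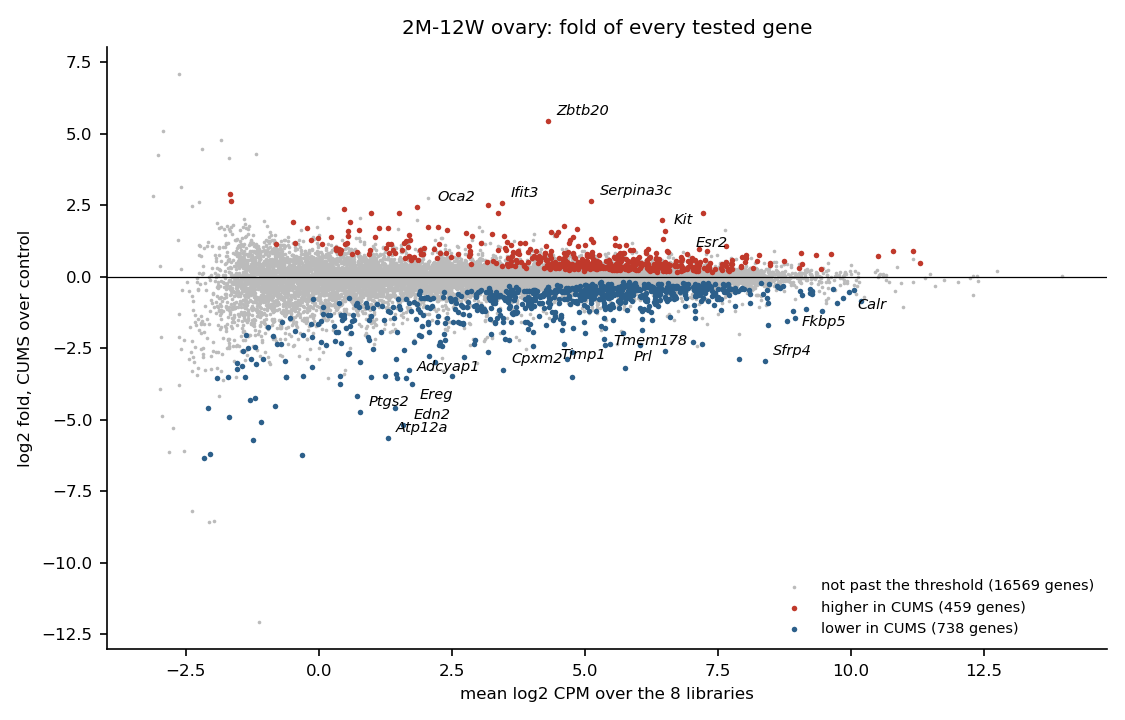
Log2 fold, CUMS over control, on the y axis against the mean log2 CPM over the 8 libraries on the x axis, with 1 point per gene tested. Of these, 459 genes higher in CUMS ovaries, 738 lower and the rest, not called, are drawn in different colours, and the points far below 0 outnumber those far above it.

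Among genes of the LH surge and ovulation many were lower in CUMS ovaries. Of 21 tested, 10 fell and 0 rose, against 4.15% lower and 2.58% higher among all genes, and the median log2 fold of the 21 was -1.12 against -0.01 over all genes tested. Folds were below 0 for 18 of the 21. The list was compiled with earlier results of these data known, as were the others used here.

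Prostaglandin synthase and the EGF-like ligands were lower in CUMS ovaries. Ptgs2, which encodes cyclooxygenase-2, the inducible prostaglandin synthase that ovulation needs, had 0.469, 0.607, 0.203 and 0.577 CPM in CUMS ovaries and 3.78, 12.6, 0.454 and 33.3 CPM in control ovaries. The CUMS libraries lay together below 1 CPM, while controls were spread over a wide range and control 3 lay beside the CUMS libraries, so that the groups overlapped. Its log2 fold was -4.73 ± 0.80 (SE; edgeR adjusted p = 0.00131), and it lies on chromosome 1, 150100031 to 150108227. Ereg, which encodes epiregulin, an EGF-like ligand that passes the LH signal on to cumulus cells, had 1.17, 0.84, 0.913 and 2.50 CPM in CUMS ovaries and 2.36, 22.2, 1.82 and 47.5 CPM in control ovaries. Controls 2 and 4 were far above all others, and the log2 fold was -3.76 ± 0.65 (edgeR adjusted p = 0.00143). Areg, which encodes the related ligand amphiregulin, had 0.0586, 0.0933, 0.457 and 0.289 CPM in CUMS ovaries and 0.301, 2.28, 0.583 and 7.28 CPM in control ovaries, a log2 fold of -3.50 ± 0.90 (edgeR adjusted p = 0.0185). That call was lost without control 4 (-2.18, edgeR adjusted p = 0.149) and without CUMS 2 (-3.23, adjusted p = 0.0614).

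Genes of follicle rupture and of the cumulus matrix moved in the same direction. Edn2, the gene of endothelin 2, a peptide that contracts the follicle wall, had 1.05, 0.233, 1.01 and 0.481 CPM in CUMS ovaries and 15.3, 28.5, 0.972 and 55.9 CPM in control ovaries (log2 fold -5.19 ± 1.01, edgeR adjusted p = 0.00322). The control 3 level lay within the CUMS range. Adamts4, an aggrecan-cleaving protease gene, had 7.21, 6.86, 7.05 and 11.9 CPM in CUMS ovaries and 26.2, 72.7, 8.56 and 67.8 CPM in control ovaries. All CUMS libraries but CUMS 4 lay below every control, and the fold was -2.41 ± 0.38 on the log2 scale (edgeR adjusted p = 0.00103). Its relative Adamts1, a progesterone-induced protease gene, had 46.6, 42.4, 46.7 and 44.4 CPM in CUMS ovaries and 88.8, 256, 74.4 and 664 CPM in control ovaries. Here the groups did not overlap, and the log2 fold was -2.59 ± 0.52 (edgeR adjusted p = 0.00406). Tnfaip6, whose product cross-links hyaluronan in the expanded cumulus, had 0.469, 0.607, 0.71 and 0.818 CPM in CUMS ovaries and 4.64, 7.004, 0.778 and 8.06 CPM in control ovaries. It fell by 2.96 ± 0.46 on the log2 scale (edgeR adjusted p = 0.00103), with control 3 next to the highest CUMS library. Timp1, an inhibitor of matrix metalloproteinases, had 28.3, 16.5, 20.1 and 19 CPM in CUMS ovaries and 74.7, 189.8, 53.8 and 109 CPM in control ovaries, and every CUMS library was below every control (log2 fold -2.35 ± 0.40, edgeR adjusted p = 0.00131). The plasminogen activator gene Plat (-0.95) and the cytokine gene Il6 (-2.88) were the other members called lower. The Plat call was lost without CUMS 3, control 2 or control 4, and the Il6 call without any 1 of 6 libraries.

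The other 11 members of the list did not pass. Pgr, the progesterone receptor that LH induces, had 4.57, 4.85, 3.65 and 6.44 CPM in CUMS ovaries and 5.67, 3.33, 4.73 and 6.98 CPM in control ovaries (log2 fold -0.09 ± 0.48, edgeR adjusted p = 0.945). Its fold turned positive without CUMS 3 (0.04) and without control 4 (0.10). The hyaluronan synthase gene Has2 (-0.85), the pentraxin gene Ptx3 (0.02) and the transcription factor gene Cebpb (-0.35) did not pass either. Runx2, a transcription factor gene of the luteinizing follicle, had 134, 9.61, 9.03 and 10.1 CPM in CUMS ovaries and 79.4, 160.0, 233 and 128 CPM in control ovaries. CUMS 1 lay within the control range and the other CUMS libraries far below it (log2 fold -1.89 ± 0.69, edgeR adjusted p = 0.0936). Without CUMS 1 it passed at -3.96 (edgeR adjusted p = 0.000489). Across the 10 members that fell, control 3 was the lowest control for 9 and control 4 the highest for 7. The number called lower stayed between 7 (without control 4) and 12 as each library was left out in turn.

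**Figure D2:**
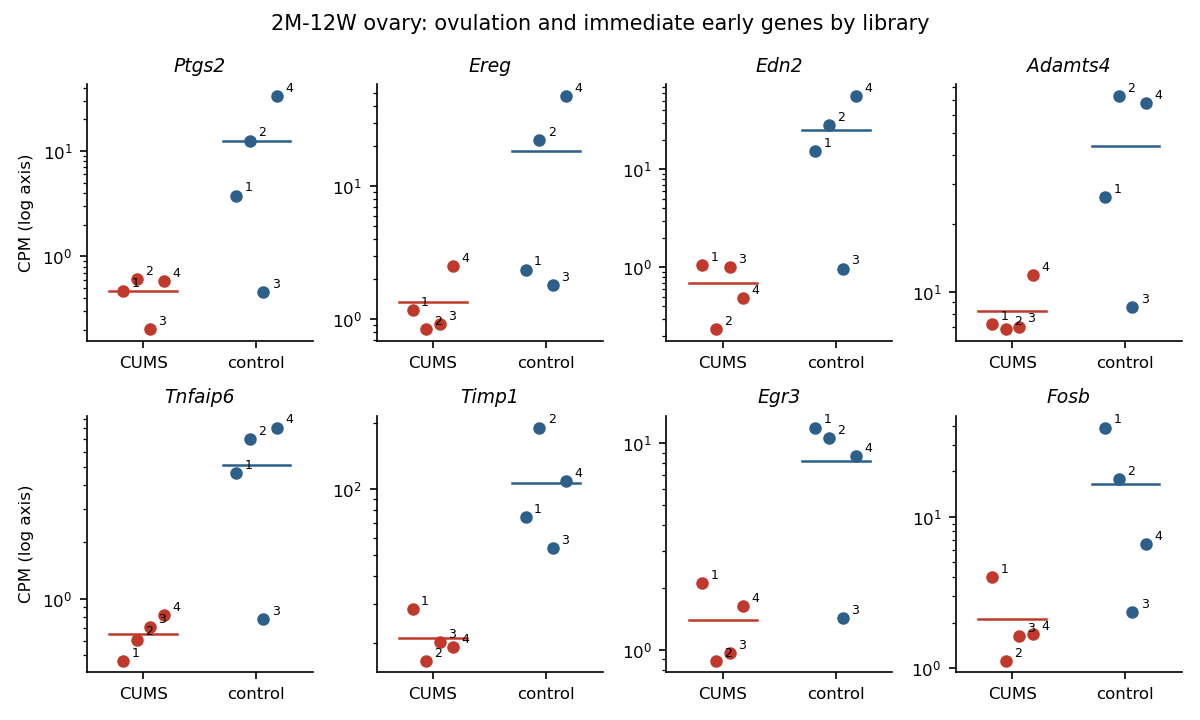
CPM on a log axis for 8 genes lowered in CUMS ovaries (Ptgs2, Ereg, Edn2, Adamts4, Tnfaip6, Timp1, Egr3 and Fosb), CUMS libraries left and controls right in each panel. Points are libraries numbered by replicate and bars are means of 4, and control 3 sits at or near the CUMS libraries for most of these genes.

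The calls among immediate early genes, many of them transcription factors that LH and other signals switch on at once, were in the same direction. Of 27 tested 12 fell and 0 rose, against 4.15% lower and 2.58% higher among all genes, with a median log2 fold of -0.69, and 25 folds were below 0. Egr3, a zinc finger factor gene, had 2.11, 0.887, 0.964 and 1.64 CPM in CUMS ovaries and 11.9, 10.6, 1.43 and 8.69 CPM in control ovaries (log2 fold -2.56 ± 0.57, edgeR adjusted p = 0.00777). Fosb, an AP-1 subunit gene, had 3.98, 1.12, 1.62 and 1.68 CPM in CUMS ovaries and 38.8, 17.7, 2.33 and 6.59 CPM in control ovaries (log2 fold -2.98 ± 0.80, edgeR adjusted p = 0.0236). In both, controls 1, 2 and 4 were above all CUMS libraries and control 3 was not. The Fosb call was lost without any 1 of 5 libraries, with its fold nearest to 0 without control 1 (-2.08, edgeR adjusted p = 0.0876).

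Btg2, an antiproliferative gene, had 61, 37.99, 42.4 and 47.2 CPM in CUMS ovaries and 127, 109, 42.3 and 127 CPM in control ovaries (log2 fold -1.10 ± 0.26, edgeR adjusted p = 0.0114). Control 3 lay within the CUMS range and the other controls were each above 100 CPM. Klf4, a Krüppel-like factor gene, had 13.1, 10.4, 10.9 and 12.6 CPM in CUMS ovaries and 19.2, 17.98, 27.9 and 20.95 CPM in control ovaries, with no overlap (log2 fold -0.87 ± 0.20, edgeR adjusted p = 0.0105). The calls of Btg2 (adjusted p = 0.0547) and Klf4 (0.051) were lost without CUMS 3. Fosl1, which encodes the AP-1 subunit FRA-1, was nearly absent from CUMS ovaries. It had 3 reads over the 4 CUMS libraries and 0 to 0.117 CPM in CUMS ovaries and 0 to 3.43 CPM in controls, with none in control 3 (edgeR adjusted p = 0.00751).

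Other members of the list gave small or uncertain folds. Fos had 29.1, 14.5, 17.2 and 17.5 CPM in CUMS ovaries and 25.7, 19.4, 8.17 and 26.7 CPM in control ovaries (log2 fold -0.04 ± 0.34) and Egr1 294, 82.8, 97.8 and 84.2 CPM in CUMS ovaries and 178, 179, 53.4 and 236 CPM in control ovaries (log2 fold -0.21 ± 0.38), and neither passed. Nr4a1, an orphan receptor gene, had its highest level of all 8 libraries in CUMS 4 and its lowest in CUMS 2, at 131, 18.9, 47.5 and 313 CPM in CUMS ovaries and 114, 119, 34.2 and 114 CPM in control ovaries. Jun (-0.52) and Jund (-0.30) fell. Of the 12 calls only 2 held without CUMS 3, 5 without CUMS 2 or without control 2, and 6 without control 4.

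Promoter windows of 250 bases before to 50 after the start, from RefSeq on GRCm38.p6, were searched on both strands for TGACGTCA, the cAMP response element (CRE) through which LH signals can act. It lay in 1 of the 7 ovulation genes called lower that had a window (Areg) and in 2 of 10 immediate early genes (Btg2 and Maff), against 1.79% of all windows. The 7 ovulation genes had 7 windows and the 10 immediate early genes 16. The parts of 2 windows that hold it are shown 5′ to 3′ on the gene's strand, as 1 called gene with the element from each list, with the element in capitals.
Areg promoter (plus strand, chr5:91139503-91139580): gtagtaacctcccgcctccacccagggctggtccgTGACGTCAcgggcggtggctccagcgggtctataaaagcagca
Btg2 promoter (minus strand, chr1:134079279-134079356): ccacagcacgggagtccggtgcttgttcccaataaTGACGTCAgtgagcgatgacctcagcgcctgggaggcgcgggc
The element began at position -61 in Areg, -166 in Btg2 and -29 in Maff. A match is a description of the sequence, not of binding.

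Clock genes were shifted in both directions. Of 20 tested 4 rose and 3 fell, against 2.58% higher and 4.15% lower among all genes, with a median log2 fold of 0.14. The genes of the positive limb were lower: Arntl, which encodes BMAL1, had 26.1, 17.8, 19.6 and 22.1 CPM in CUMS ovaries and 32.5, 47.8, 31.96 and 42.3 CPM in control ovaries, and its partner gene Npas2 had 5.33, 4.76, 4.06 and 3.94 CPM in CUMS ovaries and 7.56, 11.2, 7.91 and 8.99 CPM in control ovaries. In both, every CUMS library lay below every control, with log2 folds of -0.85 ± 0.15 (edgeR adjusted p = 0.00149) and -0.98 ± 0.29 (edgeR adjusted p = 0.0415). Clock, the gene of the other partner, did not pass (-0.38 ± 0.18). Nfil3, a repressor that competes with the PAR bZIP factors for D-boxes, had 17.6, 11.5, 13.6 and 12.6 CPM in CUMS ovaries and 33.1, 46, 19.4 and 43.6 CPM in control ovaries, again without overlap (log2 fold -1.36 ± 0.22, edgeR adjusted p = 0.00125).

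The genes that rose were a period gene, a REV-ERB gene and both PAR bZIP factor genes Tef and Hlf. Nr1d2, which encodes REV-ERB beta, a repressor of Arntl, had 177, 164, 175 and 149 CPM in CUMS ovaries and 103, 86.8, 149 and 106 CPM in control ovaries and did not overlap between groups (log2 fold 0.58 ± 0.12, edgeR adjusted p = 0.00481). Per3 had 58.8, 60.4, 76.6 and 47.8 CPM in CUMS ovaries and 39.97, 28.8, 51.4 and 29.9 CPM in control ovaries (log2 fold 0.70 ± 0.16, edgeR adjusted p = 0.00777). Tef had 127, 172, 179.8 and 124 CPM in CUMS ovaries and 127, 89.3, 112 and 86.4 CPM in control ovaries (log2 fold 0.54 ± 0.13, edgeR adjusted p = 0.013). Control 1 reached the level of CUMS 1 and 4. Hlf had 18.3, 28.3, 26.2 and 18.7 CPM in CUMS ovaries and 15.6, 11.1, 15.8 and 12.2 CPM in control ovaries, with no overlap (log2 fold 0.75 ± 0.20, edgeR adjusted p = 0.0254).

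Dbp, the third PAR bZIP gene, did not pass with all libraries. It had 99.6, 102, 108 and 56.5 CPM in CUMS ovaries and 33.1, 31.5, 103 and 34.5 CPM in control ovaries (log2 fold 0.86 ± 0.28, edgeR adjusted p = 0.064). Controls 1, 2 and 4 lay below all CUMS libraries, whereas control 3 lay within their range. Dbp passed without control 3 (1.48, edgeR adjusted p = 0.000207) and without CUMS 4 (1.05, adjusted p = 0.0343). Nr1d1, which encodes REV-ERB alpha, had its highest level of all 8 libraries in control 3. It had 109, 108, 87.8 and 50.5 CPM in CUMS ovaries and 41.8, 67.3, 137 and 51.2 CPM in control ovaries (log2 fold 0.26 ± 0.27, not passing). Nr1d1 passed without control 3 (0.75, edgeR adjusted p = 0.0416). Per1, Per2, Cry1 and Cry2 did not pass either, with log2 folds of 0.19, 0.58, -0.08 and -0.16. The calls of Arntl, Nfil3 and Nr1d2 held with each single library left out, while the other 4 were each lost without at least 1. The number of clock genes called higher was 1 without CUMS 3 and 6 without control 3.

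**Figure D3:**
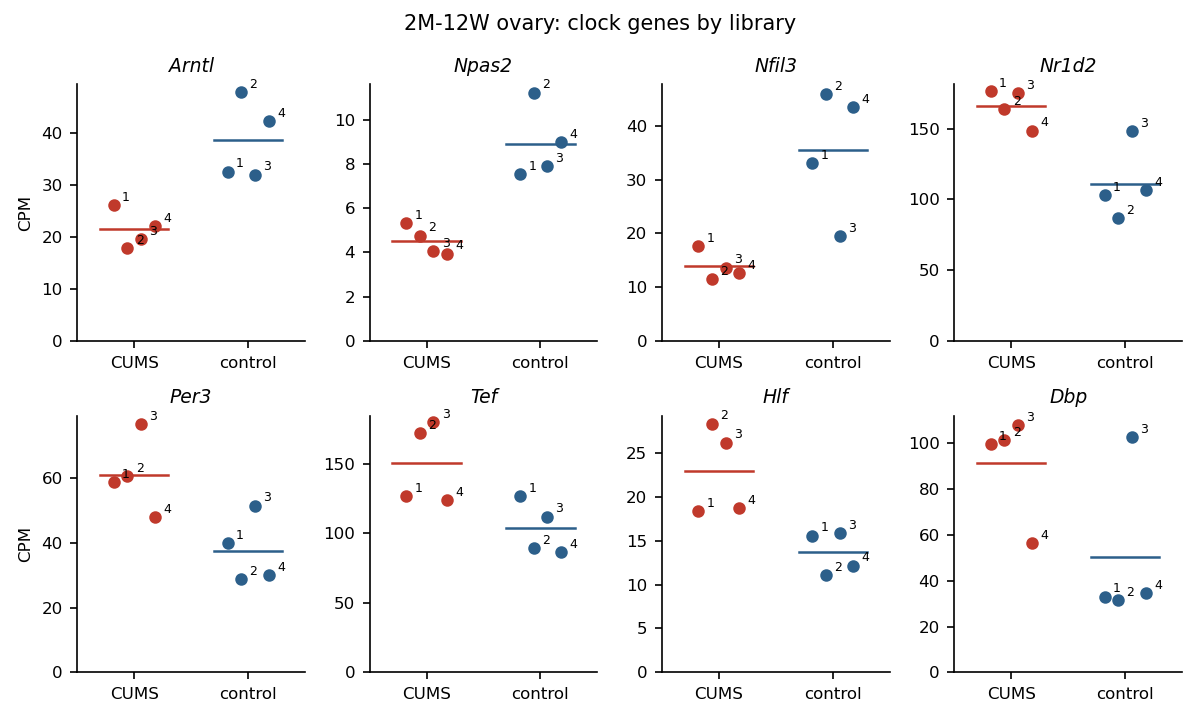
CPM on a linear axis for 8 clock genes, CUMS libraries left and controls right in each panel, points numbered by replicate with the mean as a bar. Arntl, Npas2 and Nfil3 lie lower in all 4 CUMS ovaries, Nr1d2 and Hlf higher, and Dbp splits the controls, with control 3 at the CUMS level.

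Windows of the 7 clock genes called were searched for the clock's own elements: the E-box CACGTG, bound by BMAL1 dimers, the D-box TTANGTAA, bound by PAR bZIP factors and NFIL3, and TAGGTCA, the core of the element bound by REV-ERB and ROR proteins. All windows in the table held these in 7.15%, 2.32% and 2.61%. Arntl and Nfil3, both called lower, held TAGGTCA, Per3 held 2 D-boxes and Tef held an E-box, and the stretches around them are shown with the elements in capitals.
Arntl promoter (plus strand, chr7:113207530-113207559): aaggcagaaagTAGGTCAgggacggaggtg
Nfil3 promoter (minus strand, chr13:52981010-52981086): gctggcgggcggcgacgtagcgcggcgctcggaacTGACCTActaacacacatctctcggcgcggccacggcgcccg
Per3 promoter (minus strand, chr4:151044781-151044905): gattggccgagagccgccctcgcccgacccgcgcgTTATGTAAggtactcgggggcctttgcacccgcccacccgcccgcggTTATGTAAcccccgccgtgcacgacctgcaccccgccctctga
Tef promoter (plus strand, chr15:81802511-81802586): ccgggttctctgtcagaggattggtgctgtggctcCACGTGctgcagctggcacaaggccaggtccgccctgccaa
The Arntl element begins 31 bases after the start, and in Nfil3 the element reads on the other strand. The windows of Npas2, Nr1d2 and Hlf held none of these letters, which says nothing about binding outside them.

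Follicle genes were mostly higher without passing, and 1 member of the oocyte list stood out. Kit, which encodes the receptor through which granulosa cells drive oocyte growth and which theca and mast cells also carry, had 111, 203, 237 and 127 CPM in CUMS ovaries and 93.7, 38.7, 46.1 and 41.9 CPM in control ovaries. CUMS libraries lay above all controls (log2 fold 1.62 ± 0.27, edgeR adjusted p = 0.00125), and the call held with each single library left out. The gene lies on chromosome 5, 75574916 to 75656722 of GRCm38, the build of the deposited positions. It was the only one of 25 genes of the oocyte list to pass in edgeR, where 2.58% of all genes were higher. In the list 5 had an unadjusted p under 0.05, and DESeq2 on all ovary libraries called 1. DESeq2 on these 8 libraries alone, a setting added after seeing the data, called 11. All 25 folds were nevertheless above 0, with a median of 0.42, and in 17 of 25 every CUMS library lay above every control, against 5.32% of all genes. The egg coat gene Zp3, for example, had 66.3, 58.5, 57.5 and 53.3 CPM in CUMS ovaries and 44.7, 41.3, 51.8 and 37.8 CPM in control ovaries (log2 fold 0.42 ± 0.24, edgeR adjusted p = 0.289), and the oocyte growth factor genes Gdf9 (0.38 ± 0.23) and Bmp15 (0.38 ± 0.21) had similar folds. Oocyte transcripts come from the same cells in each ovary, so that these 25 folds are not independent. Among CUMS ovaries Kit was lowest in CUMS 1, as were the 2 theca genes called below. Gdf9 and Zp3 were highest there, and Bmp15 was highest in CUMS 4. The cells behind the higher Kit level were not tested.

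Of 18 granulosa genes 1 rose, against 2.58% higher among all genes, with a median log2 fold of 0.37. Esr2, which encodes estrogen receptor beta, had 139, 143, 167 and 213 CPM in CUMS ovaries and 139.5, 57.4, 98.7 and 81.5 CPM in control ovaries, and CUMS 1 to 4 overlapped with control 1 alone (log2 fold 0.81 ± 0.24, edgeR adjusted p = 0.0422). This call was lost without any 1 of 6 libraries (0.65 to 0.88, adjusted p 0.0564 to 0.169). The inhibin gene Inha (0.62 ± 0.23), the follistatin gene Fst (0.71 ± 0.28), the FSH receptor gene Fshr (0.37 ± 0.33), the aromatase gene Cyp19a1 (0.48 ± 0.53), the activin subunit gene Inhba (0.55 ± 0.40) and Amh (0.29 ± 0.25) did not pass. Without control 1 the number called was 3, and without CUMS 1 it was 3, Inha being among them both times (0.78 and 0.79, edgeR adjusted p 0.0382 and 0.0311). Esr2 was also the only one of 13 hormone receptor genes called, where 6.74% of all genes were called. Esr1 was at -0.08 ± 0.21 and the glucocorticoid receptor gene Nr3c1 at -0.23 ± 0.23.

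Among 7 theca genes, all with folds above 0 (median 0.32), 2 rose, against 2.58% higher among all genes. Aldh1a1, a retinaldehyde dehydrogenase gene, had 2535, 3486, 3860.0 and 2832 CPM in CUMS ovaries and 2417, 1389, 1618 and 1427 CPM in control ovaries, without overlap (log2 fold 0.89 ± 0.20, edgeR adjusted p = 0.00933). Insl3, the gene of the theca peptide INSL3, had 5.68, 24.9, 15.01 and 7.70 CPM in CUMS ovaries and 9.23, 3.53, 3.24 and 2.34 CPM in control ovaries (log2 fold 1.53 ± 0.42, edgeR adjusted p = 0.0254). The Aldh1a1 call was lost without control 2 and the Insl3 call without any 1 of 5 libraries. Cyp17a1, which encodes the enzyme that forms androgens, had 47.5, 885, 379 and 958 CPM in CUMS ovaries and 523, 87.4, 51.3 and 66.2 CPM in control ovaries. CUMS 1 lay below the controls and control 1 among the CUMS libraries, and the gene did not pass (log2 fold 1.64 ± 0.70, edgeR adjusted p = 0.157). It passed without control 1 (3.07, adjusted p = 0.00717) and without CUMS 1 (2.03, adjusted p = 0.0499).

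Luteal genes leaned lower, with CUMS 1 apart. Of 12 tested 1 fell, against 4.15% lower among all genes, 11 folds were below 0 and the median was -0.75. Sfrp4, which encodes a secreted Wnt inhibitor of the corpus luteum, had 529, 43.6, 56 and 62.3 CPM in CUMS ovaries and 739.9, 1363, 2474 and 744 CPM in control ovaries. CUMS ovaries 2 to 4 were far below the lowest control and CUMS 1 lay between (log2 fold -2.95 ± 0.88, edgeR adjusted p = 0.0414), and the call was lost without any 1 of 6 libraries. Ptgfr, the gene of the prostaglandin F receptor through which the corpus luteum regresses, had 256, 20.9, 29.8 and 32.6 CPM in CUMS ovaries and 208, 463, 842 and 296 CPM in control ovaries (log2 fold -2.42 ± 0.82, edgeR adjusted p = 0.0731). Star, which encodes the cholesterol carrier of steroid synthesis, had 1166, 292, 178 and 409 CPM in CUMS ovaries and 334, 1022, 3017 and 854 CPM in control ovaries (log2 fold -1.35 ± 0.57, edgeR adjusted p = 0.152).

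Without CUMS 1 the number of luteal genes called lower was 6. It then included Ptgfr (-4.01, edgeR adjusted p = 0.00539), Star (-2.15, adjusted p = 0.0245), Hsd17b7 (-4.57, adjusted p = 0.00432), the prolactin receptor gene Prlr (-1.07, adjusted p = 0.0131) and the side-chain cleavage gene Cyp11a1 (-0.78, adjusted p = 0.0461). With all 8 libraries Prlr (-0.76 ± 0.27), Cyp11a1 (-0.63 ± 0.23) and the LH receptor gene Lhcgr (-0.62 ± 0.37) did not pass. Hsd3b1 (0.19 ± 0.13) and Akr1c18 (-1.30 ± 1.11), genes of progesterone formation and breakdown, did not pass either. Of 16 steroidogenesis genes 0 passed in edgeR, 7 had an unadjusted p under 0.05 and DESeq2 called 1. Of 20 genes of cholesterol synthesis and uptake, with a median of -0.60, 0 passed in edgeR, 7 had an unadjusted p under 0.05 and DESeq2 called 2. Among all 17766 genes 6.74% passed in edgeR, 4076 had an unadjusted p under 0.05 and DESeq2 called 1724. The median of the cholesterol list was -0.06 without control 3.

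**Figure D4:**
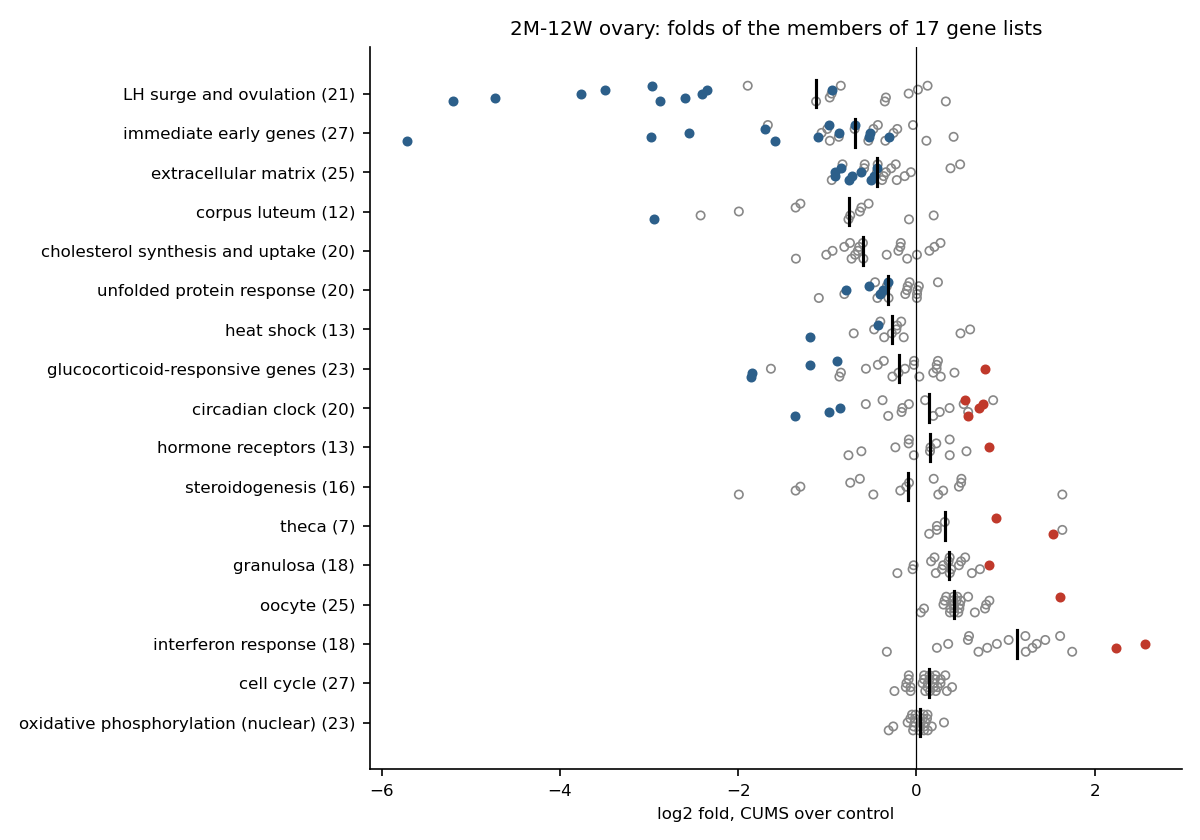
Log2 fold, CUMS over control, for every tested member of 17 gene lists, with filled points for genes past the threshold, a bar at the list's median and the number tested beside the name. The ovulation, immediate early and matrix lists lie left of 0, the oocyte list lies wholly right of it, and the clock list spreads to both sides.

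Glucocorticoid-responsive genes did not rise as a list: of 23 tested 1 rose and 4 fell, against 2.58% higher and 4.15% lower among all genes. The median log2 fold was -0.20. Fkbp5, which encodes a co-chaperone of the glucocorticoid receptor that the hormone induces, was lower, at 593, 232, 254 and 275 CPM in CUMS ovaries and 502, 849, 1033 and 713 CPM in control ovaries. CUMS 2 to 4 lay below every control and CUMS 1 among the controls (log2 fold -1.19 ± 0.29, edgeR adjusted p = 0.0136). The call was lost without CUMS 2 (adjusted p = 0.0543), CUMS 3 (0.0733) or control 2 (0.0574). Cdkn1a, the gene of the cell cycle inhibitor p21, had 19.6, 12.7, 10.7 and 11.7 CPM in CUMS ovaries and 59.8, 67.95, 14.6 and 54.2 CPM in control ovaries (log2 fold -1.85 ± 0.41, edgeR adjusted p = 0.00789), with control 3 within the CUMS range. Errfi1, a feedback inhibitor gene of the EGF receptor, had 50.05, 31.9, 35.7 and 40.8 CPM in CUMS ovaries and 160.3, 146, 35.6 and 225 CPM in control ovaries (log2 fold -1.84 ± 0.44, edgeR adjusted p = 0.013). In Errfi1, too, control 3 stood at the CUMS level and the other 3 controls far above, and the call was lost without CUMS 3 (adjusted p = 0.0576) or control 4 (0.0616).

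The sulfotransferase gene Sult1a1 was the member that rose, at 16.9, 35.9, 32.5 and 22.5 CPM in CUMS ovaries and 14.7, 13.1, 18.5 and 16.8 CPM in control ovaries (log2 fold 0.77 ± 0.18, edgeR adjusted p = 0.012), a call lost without CUMS 2, CUMS 3 or control 2 (adjusted p 0.0576 to 0.0606). Other classical targets did not pass. Tsc22d3, which encodes GILZ, had a log2 fold of -0.02 ± 0.12, Per1 0.19 ± 0.15 and Zbtb16 -0.57 ± 0.34. Sgk1, a kinase gene induced by corticosteroids, had 312, 44.2, 39.6 and 52.04 CPM in CUMS ovaries and 224, 437, 359.9 and 364 CPM in control ovaries, and CUMS 1 alone stood at the control level (log2 fold -1.63 ± 0.54, edgeR adjusted p = 0.064). Sgk1 passed without CUMS 1 (-2.92, edgeR adjusted p = 0.000696) and without control 1 (-1.78, adjusted p = 0.0471). The number called lower ranged from 1 without CUMS 3 to 6 without CUMS 1 or control 1.

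Among extracellular matrix genes the calls were all in one direction. Of 25 tested 9 fell and 0 rose, against 4.15% lower and 2.58% higher among all genes. Of the folds 23 were below 0, and the median was -0.44. In 8 of the 25 every CUMS library lay below every control, against 5.74% of all genes. Col5a1, a fibrillar collagen gene, had 143, 151, 132 and 150.1 CPM in CUMS ovaries and 187, 308, 176 and 275 CPM in control ovaries, without overlap (log2 fold -0.72 ± 0.13, edgeR adjusted p = 0.00186). Sparc, the gene of a collagen-binding matrix protein, had 1126, 849.5, 771 and 818 CPM in CUMS ovaries and 1033, 1979.7, 1705 and 1671 CPM in control ovaries (log2 fold -0.84 ± 0.17, edgeR adjusted p = 0.00483). Eln, which encodes elastin, had 40.02, 40.6, 34.7 and 36.6 CPM in CUMS ovaries and 43.2, 58.7, 68.8 and 63.4 CPM in control ovaries, with no overlap (log2 fold -0.62 ± 0.14, edgeR adjusted p = 0.00697). Col1a1 had 256, 274, 232 and 285 CPM in CUMS ovaries and 312, 668, 311 and 683 CPM in control ovaries, controls 2 and 4 being far above and controls 1 and 3 close to the CUMS libraries (log2 fold -0.92 ± 0.22, edgeR adjusted p = 0.013).

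The other matrix members called were Col3a1 (-0.75), Col4a1 (-0.47), Col4a2 (-0.51), Col6a3 (-0.44) and the crosslinking enzyme gene Loxl1 (-0.91). Thbs1, which encodes thrombospondin 1, was above all controls in all 4 CUMS libraries without passing (0.49 ± 0.16). The list's count was 3 without CUMS 3, without control 2 and without control 4, 5 without CUMS 4 and 6 without CUMS 2.

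Of 20 genes of the unfolded protein response, which includes chaperones of the endoplasmic reticulum, 5 fell and 0 rose, against 4.15% lower and 2.58% higher among all genes (median log2 fold -0.32). Calr, which encodes calreticulin, had 808, 817, 783 and 927 CPM in CUMS ovaries and 1050.2, 1476, 1094 and 1206 CPM in control ovaries (log2 fold -0.53 ± 0.09, edgeR adjusted p = 0.00142). Pdia3, a protein disulfide isomerase gene, had 714, 664, 734 and 729.6 CPM in CUMS ovaries and 885, 1146, 852 and 894 CPM in control ovaries (log2 fold -0.41 ± 0.09, edgeR adjusted p = 0.00661). In both genes the groups did not overlap. Edem1, which directs misfolded glycoproteins to degradation, fell by 0.32 ± 0.08 (edgeR adjusted p = 0.0112), and the chaperone gene Sdf2l1 by 0.79 ± 0.19 (edgeR adjusted p = 0.0126). The stress-induced members Ddit3 (-0.08), Atf4 (0.01) and Hspa5 (0.01) did not pass. Without control 2, 1 gene of the list passed, and the calls of Pdia3 (adjusted p = 0.0621), Edem1 (0.0675) and Sdf2l1 (0.0702) were lost.

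Of 13 heat shock genes 2 fell, against 4.15% lower among all genes, and the median was -0.27. They were the small heat shock protein gene Hspb1 and the mitochondrial chaperonin gene Hspd1. Hspb1 had 21.6, 25.4, 22.2 and 21.4 CPM in CUMS ovaries and 33.1, 55.2, 54.5 and 63.6 CPM in control ovaries, without overlap (log2 fold -1.19 ± 0.26, edgeR adjusted p = 0.00638). Hspa1a (0.60 ± 0.28) did not pass. Of 16 hypoxia and glycolysis genes 2 fell (median -0.31), and without CUMS 3, CUMS 4, control 2 or control 4 none passed.

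The genes with the largest and the most certain falls outside these lists were of several kinds. Atp12a, the gene of a proton-potassium pump, was among the genes with the smallest adjusted p, at 0.352, 0.42, 0.0507 and 0.721 CPM in CUMS ovaries and 10.1, 46.6, 5.51 and 16.5 CPM in control ovaries. Every CUMS library was below 1 CPM and every control above 5 (log2 fold -5.64 ± 0.71, edgeR adjusted p = 0.000137). It lies on chromosome 14, 56365068 to 56388551 of GRCm38. Atp12a was also called lower in 2M-8W (-3.62), 6M-8W (-2.53) and 6M-12W (-3.44), at edgeR adjusted p of 0.00606, 0.0416 and 0.00242. Akr1b7, an aldo-keto reductase gene of steroid-forming cells, had 1.05, 1.03, 0.659 and 0.529 CPM in CUMS ovaries and 1.55, 45.5, 1.94 and 29.6 CPM in control ovaries (log2 fold -4.58 ± 0.81, edgeR adjusted p = 0.00159). Arc, a gene of the immediate early kind known from neurons, had 1.29, 0.56, 1.22 and 0.625 CPM in CUMS ovaries and 17, 14.6, 1.49 and 9.57 CPM in control ovaries (log2 fold -3.54 ± 0.60, edgeR adjusted p = 0.00131).

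Adcyap1, which encodes the LH-induced peptide PACAP, had 4.75, 0.233, 0.254 and 0.77 CPM in CUMS ovaries and 6.96, 34.1, 3.37 and 22.1 CPM in control ovaries (log2 fold -3.52 ± 0.89, edgeR adjusted p = 0.0173), and Tnfrsf9, a TNF receptor family gene, had 9.96, 0.56, 1.01 and 0.577 CPM in CUMS ovaries and 9.02, 25.1, 86.9 and 10.4 CPM in control ovaries (log2 fold -3.48 ± 0.94, edgeR adjusted p = 0.0251). In both, CUMS 1 was the highest CUMS library, and the calls were lost without CUMS 2, 3 or 4 or control 2. The Tnfrsf9 call was also lost without control 3, its highest library (-2.32, edgeR adjusted p = 0.119). Falls with the smallest p further took in Efemp1, the gene of the matrix protein fibulin-3, with 46.8 ± 4.59 CPM in CUMS ovaries and 131 ± 42.2 CPM in control ovaries (SD, n = 4 each) (log2 fold -1.49 ± 0.19, edgeR adjusted p = 0.000137). Cp, which encodes the copper carrier ceruloplasmin, averaged 23.2 ± 4.21 CPM in CUMS ovaries and 76.1 ± 40.5 CPM in control ovaries (SD, n = 4 each) (log2 fold -1.71 ± 0.27, edgeR adjusted p = 0.00103). Srxn1, the gene of the antioxidant enzyme sulfiredoxin, fell by 1.5 ± 0.24 (edgeR adjusted p = 0.00103), Tmem178 by 2.37 ± 0.32 (edgeR adjusted p = 0.00031) and the carboxypeptidase-like gene Cpxm2 by 3.25 ± 0.46 (edgeR adjusted p = 0.000397).

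Among the genes that rose with the smallest p were enzyme and channel genes. Eci2, an enoyl-CoA isomerase gene of fatty acid oxidation, had 75.9, 98.4, 88.5 and 80.1 CPM in CUMS ovaries and 68.3, 60.1, 58.1 and 61.3 CPM in control ovaries, every CUMS library lying above every control (log2 fold 0.47 ± 0.07, edgeR adjusted p = 0.00101). Lap3, a leucine aminopeptidase gene, had 112, 143, 128 and 124 CPM in CUMS ovaries and 97.6, 81.2, 83.04 and 83.6 CPM in control ovaries, all controls but control 1 lying within 3 CPM of each other (log2 fold 0.56 ± 0.07, edgeR adjusted p = 0.000137). The chloride channel gene Clcn2 rose by 0.68 ± 0.09 (edgeR adjusted p = 0.000261) and the sodium-activated potassium channel gene Kcnt1 by 1.09 ± 0.17 (edgeR adjusted p = 0.000916).

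Some genes had larger folds. Serpina5, which encodes the protein C inhibitor, had 272, 459, 477 and 209 CPM in CUMS ovaries and 141, 35.9, 77.6 and 48.2 CPM in control ovaries (log2 fold 2.23 ± 0.39, edgeR adjusted p = 0.00146). Serpina3c, a protease inhibitor gene whose counts are uncertain because near-identical copies lie beside it, had 70.5, 108, 140.4 and 65.2 CPM in CUMS ovaries and 28.5, 6.36, 16.1 and 10.3 CPM in control ovaries (log2 fold 2.64 ± 0.42, edgeR adjusted p = 0.00103). Oca2, the gene of a melanosome transporter, had 13.4, 33.6, 30.1 and 19.3 CPM in CUMS ovaries and 9.10, 1.99, 3.44 and 2.30 CPM in control ovaries (log2 fold 2.50 ± 0.44, edgeR adjusted p = 0.00168). Zfp536, a zinc finger factor gene, had 3.46, 6.02, 8.88 and 6.35 CPM in CUMS ovaries and 1.97, 0.993, 1.17 and 1.03 CPM in control ovaries (log2 fold 2.25 ± 0.33, edgeR adjusted p = 0.000579). In each of these 4 genes the call held with every single library left out.

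Zbtb20, a zinc finger repressor gene, had the highest fold of all called genes, 5.45 ± 1.41 (edgeR adjusted p = 0.0195), from 5.68, 237, 307 and 187 CPM in CUMS ovaries and 5.02, 5.27, 3.44 and 3.03 CPM in control ovaries. CUMS 1 lay with the controls and the other 3 CUMS libraries far above. The same 2 levels occurred across the 31 ovary libraries, of which 11 held 2.96 to 15.4 CPM and 20 held 72.8 to 413 CPM, and they did not follow CUMS or control. The call was lost without CUMS 3, control 2 or control 4 (adjusted p 0.059 to 0.0726).

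Interferon-induced genes were high in 1 CUMS library. Ifit3 had 114, 16.3, 10.1 and 6.54 CPM in CUMS ovaries and 5.62, 5.41, 6.87 and 6.89 CPM in control ovaries and Ifit1 88.3, 11.01, 10.1 and 8.90 CPM in CUMS ovaries and 5.11, 7.65, 4.73 and 7.37 CPM in control ovaries, and both were called (log2 folds 2.57 ± 0.69 and 2.24 ± 0.64, edgeR adjusted p 0.0238 and 0.0323). CUMS 1 was far above all other libraries in both genes. Every CUMS library exceeded every control for Ifit1, and all but CUMS 4 did for Ifit3. Without CUMS 1 Ifit3 was at 0.84 (edgeR adjusted p = 0.355) and Ifit1 at 0.70 (adjusted p = 0.42). Then 0 of 18 interferon genes passed and their median log2 fold was 0.12, against 2 genes and 1.13 with CUMS 1. Among all genes tested 590 of 17740 were higher without CUMS 1 and 459 of 17766 with it. Ifit3b, a near-identical neighbour of Ifit3 with which it may share reads, was at 0.74 (adjusted p = 0.472) without CUMS 1. Among the other ovary sets, 6M-8W had 7 of the 18 interferon genes called higher (median 1.79), against 99 of all 17766 genes. In 6M-8W Ifit3 had 9.81, 30.3, 54.3 and 183.6 CPM in CUMS ovaries and 5.72 to 7.88 CPM in controls.

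**Figure D5:**
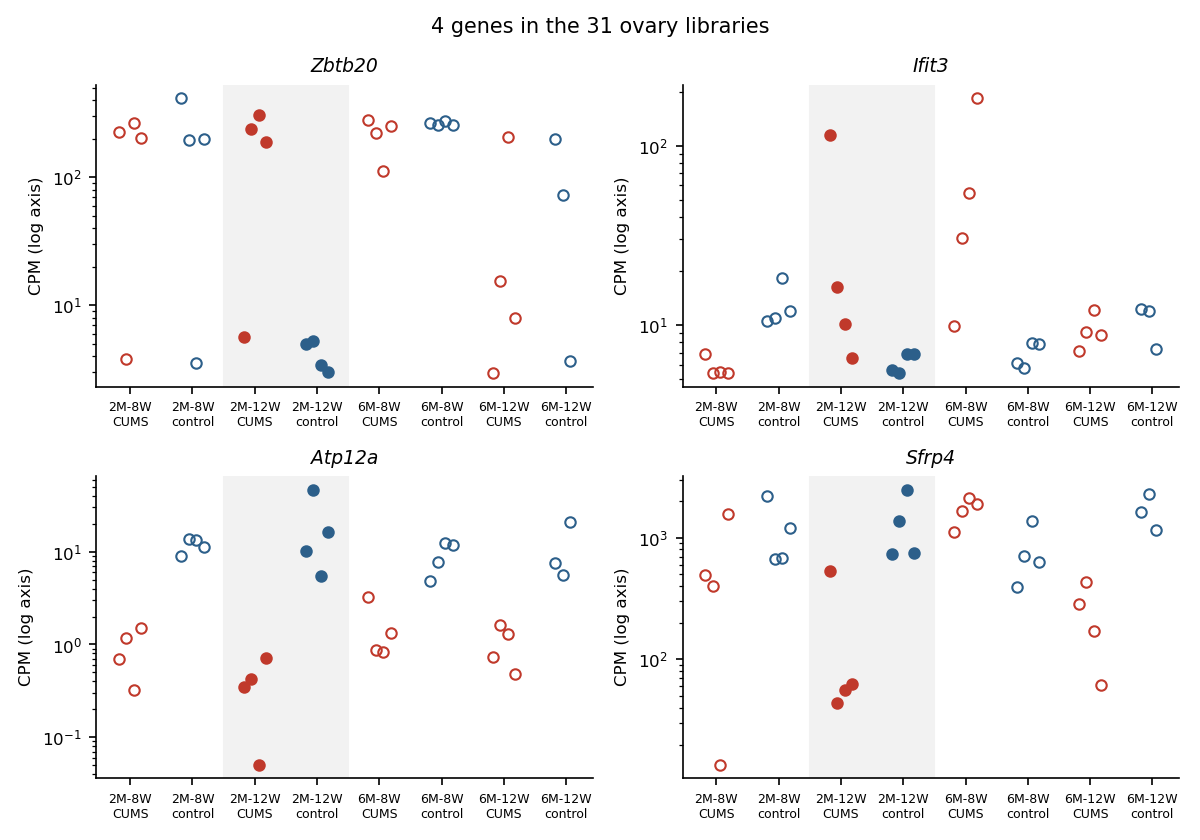
CPM on a log axis of Zbtb20, Ifit3, Atp12a and Sfrp4 in the 31 ovary libraries by set, CUMS left of control in each set, with the 2M-12W libraries filled. Zbtb20 splits into a low and a high level within several groups. Ifit3 is high in CUMS 1 of 2M-12W and in CUMS 4 of 6M-8W. Atp12a is below 1 CPM in all 4 CUMS ovaries of 2M-12W.

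Markers of other tissues differed between single libraries. Pituitary hormone genes were called lower in CUMS ovaries in 4 of 5 tested, against 4.15% lower among all genes. Their summed level was 45.6 to 53.4 CPM in CUMS ovaries and 1524.5, 140.8, 65.9 and 59.3 CPM in controls 1 to 4. Gh, for growth hormone, had 12.8, 12.4, 14.7 and 13.4 CPM in CUMS ovaries and 517, 47.8, 19.6 and 18.9 CPM in control ovaries (log2 fold -3.50 ± 0.89, edgeR adjusted p = 0.0173). Prl, for prolactin, had 28.8, 29.4, 31.8 and 27.99 CPM in CUMS ovaries and 915, 75.8, 39.5 and 34.2 CPM in control ovaries (log2 fold -3.18 ± 0.91, edgeR adjusted p = 0.0335). Pomc (-2.21) and the gonadotropin subunit gene Cga (-3.47) were called as well, and the remaining members Lhb, Fshb, Tshb and Pou1f1 were under 3 CPM in every library. Without control 1 none of the 5 passed: the log2 fold was -1.10 for Gh, -0.74 for Prl, -0.73 for Pomc and -1.09 for Cga. Its part in the other results was not tested beyond leaving control 1 out, which gave 1724 called genes in place of 1197.

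Of adrenal and kidney markers Cyp11b1, which encodes the enzyme that makes corticosterone in the adrenal cortex, was highest in controls 2 and 4, at 0.117, 0.187, 0.152 and 0 CPM in CUMS ovaries and 0.429, 21.2, 0.648 and 13.3 CPM in control ovaries (log2 fold -6.21 ± 1.43, edgeR adjusted p = 0.00995). Its close copy Cyp11b2, with which it may share reads, and Cyp21a1, which adrenal cortex expresses too, were at or near 0 in all 8 libraries. The Cyp11b1 call was lost without control 2 (-5.31, adjusted p = 0.0512). Aqp2, a water channel gene of the kidney, had 0.41, 6.67, 3.30 and 3.99 CPM in CUMS ovaries and 2.23, 0.795, 0.583 and 0.879 CPM in control ovaries (log2 fold 1.66 ± 0.51, edgeR adjusted p = 0.0465), and this call was lost without any 1 of 6 libraries (adjusted p 0.0848 to 0.185).

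Lists of other ovarian and blood cells gave few calls. Cd163 was the 1 of 17 macrophage genes to fall (list median -0.19) and Smtn the 1 of 10 smooth muscle genes (-0.31). Among all 17766 genes 4.15% were lower, 6.74% were called in either direction and 4076 had an unadjusted p under 0.05. The Cd163 call was lost without any 1 of 5 libraries and the Smtn call without any 1 of 4. In edgeR 0 genes passed among 12 endothelial, 11 surface epithelial, 11 oviduct and motile cilia, 10 adipocyte, 5 erythroid, 5 neutrophil, 8 T and NK cell and 5 B cell genes. At an unadjusted p under 0.05 the counts in that order were 3, 1, 3, 1, 0, 1, 0 and 2, and DESeq2 called 1 endothelial gene and none in the other 7. Among pathways, 0 of 27 cell cycle genes (2 unadjusted, DESeq2 0), 0 of 23 genes of oxidative phosphorylation (3 unadjusted, DESeq2 1) and 0 of 11 antigen presentation genes (2 unadjusted, DESeq2 0) passed. Medians were 0.15 for the cell cycle, 0.04 for oxidative phosphorylation and 0.21 for antigen presentation.

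The other ovary sets have their own controls and share no library with the 2M-12W set. Called genes made up 6.26% of all in 2M-8W, 1.12% in 6M-8W and 11.4% in 6M-12W. Of the 738 genes lower in 2M-12W, 291 (39.4%) were also called lower in 6M-12W, which is 26.2% of that set's lower genes. The same overlap was 145 genes with 2M-8W (19.6% and 35.4%) and 32 with 6M-8W (4.34% and 32.0%). Of the 459 higher genes, 155 (33.8% of them and 16.8% of the set's) were shared with 6M-12W, 41 (8.93% and 5.83%) with 2M-8W and 15 (3.27% and 15.2%) with 6M-8W.

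The ovulation list had medians of -0.61 in 2M-8W, -0.25 in 6M-8W and -0.73 in 6M-12W beside the -1.12 of 2M-12W. In that order 2, 0, 5 and 10 members were lower, against 410, 100, 1112 and 738 of all 17766 genes. In 2M-8W 1 member, Pgr, was called higher (log2 fold 2.10, edgeR adjusted p = 0.0196). Ptgs2 had log2 folds of -0.57 in 2M-8W, -0.72 in 6M-8W and -2.35 in 6M-12W, and Timp1 of -2.15 in 2M-8W, -0.72 in 6M-8W and -2.02 in 6M-12W. Arntl was below 0 in all sets (-0.80 in 2M-8W, -0.57 in 6M-8W and -0.28 in 6M-12W), but of these it passed in 2M-8W alone. Nfil3 was below 0 in all sets too (-0.64, -0.56 and -0.44 in that order). Nr1d2, at 0.58 in 2M-12W, had folds of 0.23 in 2M-8W, 0.76 in 6M-8W and -0.25 in 6M-12W. The clock list had medians of 0.21, 0.24 and -0.03 there. Kit was above 0 in all sets (1.13 in 2M-8W, 0.43 in 6M-8W and 1.2 in 6M-12W). The oocyte list had medians of 0.24, -0.13 and 0.71 in the other sets in that order. Calr, at -0.53 in 2M-12W, had folds of -0.05 in 2M-8W, -0.05 in 6M-8W and -0.02 in 6M-12W, and the unfolded protein response list had medians of 0.03, 0.22 and 0.05 there.

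Tests of the difference itself were passed by few genes. The stress effect differed between 2M-12W and 2M-8W for 89 genes (0.501% of all), 11 with a higher and 78 with a lower fold in 2M-12W. No gene differed between 2M-12W and 6M-12W in edgeR (2043 at an unadjusted p under 0.05, DESeq2 86), nor between 2M-12W and the mean of the other 3 sets (1729 unadjusted, DESeq2 44). The falls of ovulation, immediate early, clock and matrix genes in 2M-12W are thus not shown to differ from the effect in another set: none of their list members was among the 89.

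Genes of motile cilia, which line the oviduct, were among the 78 lower differences. The cilia factor gene Foxj1 had a log2 fold of -1.74 in 2M-12W and 4.97 in 2M-8W, a difference of -6.71 ± 1.49 (edgeR adjusted p = 0.0456), and the axonemal dynein gene Dnah5 differed by -7.44 ± 1.75 (edgeR adjusted p = 0.0486). The lipoxygenase gene Alox15 (-6.57 ± 1.52, edgeR adjusted p = 0.0473) and Sec14l3 (-7.09 ± 1.65, edgeR adjusted p = 0.0473) differed too, and neither moved past the threshold in 2M-12W itself. Of 11 oviduct and cilia genes 4 were among the 89, and so were 4 of 5 pituitary genes. Within 2M-12W, Foxj1 had 0.457 to 8.03 CPM in CUMS ovaries and 2.38 to 25.7 CPM in controls, with control 3 the highest.

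Among the 11 higher differences was Chkb, a choline kinase gene, which differed by 0.68 ± 0.12 (edgeR adjusted p = 0.0456). Armcx6 differed by 0.83 ± 0.19 (edgeR adjusted p = 0.0473) and the aldehyde oxidase gene Aox1 by 0.91 ± 0.19 (edgeR adjusted p = 0.0456). The count of 89 was 0 without CUMS 3, 2 without CUMS 1, 4 without control 4, 5 without CUMS 4 or without control 3, and 136 to 167 without CUMS 2, control 1 or control 2.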

How the data were processed

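Per the labels' protocols, RNA extraction used chloroform and library preparation the NEBNext Ultra II kit. The aligner, counting program, annotation and strand setting: not given in the sources used here. Each ovary library has a column of raw read counts and one of FPKM (counts divided by gene length and library total), which the authors deposited per the file headers. All FPKM values (100% of 645037) lay within 1% of counts divided by the library total and 1 length per gene, and they entered no comparison. The table holds 34745 genes.

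Counts were analysed with edgeR 4.0.16 in R 4.3.3: filterByExpr by group (17766 genes kept), TMM factors, 1 coefficient for each of the 8 ovary groups, a quasi-likelihood F test and a Benjamini-Hochberg adjusted p under 0.05 over all genes. The biological coefficient of variation was 0.207. CPM use the scaled library totals. Folds are log2, CUMS over control, and the SE is the absolute fold over the root of F. Counting error alone limits genes with few reads. The scripts were tested on simulated data.

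Besides the stress effect, 3 differences of stress effects between ovary sets were tested. Genes were named by rule: 21 core genes of ovarian function, the 8 highest and 8 lowest folds and the 6 smallest p in each direction among called genes (mean log2 CPM 1 or more, no pseudogenes or predicted genes), the 4 smallest p in each list with at least 3 called members, and 4 on each side in differences. A gene that the rule names and a list member are not reported here. Other list members, and those named for counts of 5 or fewer, were chosen after their values were seen. Members, the 31 gene lists and tests were chosen with earlier results of these data known, and 4 more groups after the values were seen.

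Alternatives were DESeq2 1.42.0, RLE size factors, no filter, a fit of own groups only, a replicate block, and each library left out. Added after seeing the data were limma 3.58.1 (voom with sample weights), DESeq2 on the 8 libraries alone, and leaving out CUMS 1 and control 1 together. No 2 libraries held the same counts: chi-square per degree of freedom was 17.7 or more in each pair within a group.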

Additional observations from a re-analysis of the deposited data

Results flagged for a closer look

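Among 150 groups of 4 libraries examined, 18 had a library whose gap to the nearest other exceeded the limit for a single value far from the rest; chance gives about 1 in 20. CUMS 1 was the high library for Lhcgr (396 CPM), Fkbp5 (593 CPM), Ifit1 (88.3 CPM), Ifit3b (35.2 CPM), Ifit3 (114 CPM), Adcyap1 (4.75 CPM), Tnfrsf9 (9.96 CPM) and Cpxm2 (5.33 CPM). CUMS 4 was high for Adamts4 (11.9 CPM) and CUMS 2 low for Edem1 (83.1 CPM). Control 1 was the high library for Cyp17a1 (523 CPM), Gh (517 CPM), Prl (915 CPM), Pomc (64.8 CPM), Cga (22.4 CPM) and Lap3 (97.6 CPM). Control 2 was high for Pdia3 (1146 CPM), and control 3 was low for Fosl1 (0 CPM).

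The stress effect differed between the 2M-12W and the 2M-8W sets in a test of the difference itself for these genes, given as the log2 fold in 2M-12W minus that in 2M-8W. It was lower in 2M-12W for Dnah5 (-7.44), Sec14l3 (-7.09), Foxj1 (-6.71) and Alox15 (-6.57), and higher for Chkb (0.68), Armcx6 (0.83) and Aox1 (0.91). Each passed in edgeR with all libraries, and none in the fit of own groups only or with the replicate number as a block.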

How the results depend on the processing

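Directions of called genes named by the rule held in all alternatives, but the number of calls depended on the fit. For the stress effect (1197 genes, 459 higher and 738 lower) no gene passed with own groups only in edgeR (0, 0 and 0). DESeq2 called 693 higher, limma-voom 1856 (742 higher, 1114 lower), and leaving out CUMS 1 and control 1 together gave 2076 (821 higher, 1255 lower). Leaving out 1 library gave 332 to 1724 genes, 160 to 777 higher and 172 to 947 lower. The difference from 2M-8W (89) was 401 with DESeq2, 45 with no filter on low counts, 0 with own groups only, 20 without CUMS 1 and control 1, 1 with limma-voom, and 0 to 167 with 1 library left out. The difference from 6M-12W (0) was 86 with DESeq2, 2 with own groups only, 1 without CUMS 1 and control 1, 77 with limma-voom, and 0 to 4 with 1 library left out. The difference from the mean of the other 3 sets (0) was 44 with DESeq2, 50 without CUMS 1 and control 1, and 0 to 8 with 1 library left out. It could not be fitted with own groups only, since it uses all sets. The difference in the share of counts from mitochondrial genes (-0.314 percentage points) ranged from -0.624 to -0.0979 with 1 library left out. Of single genes, the progesterone receptor gene Pgr changed sign, ranging from -0.23 to 0.10 with 1 library left out (0.04 without CUMS 3, 0.10 without control 4). The causes were not tested.

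The replicate number does not pair the libraries: same-numbered CUMS and control libraries had correlations of -0.241, -0.126, -0.115 and 0.007 of their deviations from the group means. With the number as a block 1218 genes passed (476 higher, 742 lower), and 0 for the difference from 2M-8W. Depth limits genes under about 1 CPM, such as Fosl1 and Fcer1a, which rest on few reads in CUMS libraries.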

Other observations

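The gene groups below were put together after the values had been seen, so their counts are descriptions. Of 27 genes of fatty acid oxidation and ketone body metabolism tested 8 rose and 0 fell, beside 2.58% higher and 4.15% lower among all genes, with a median log2 fold of 0.19. Besides Eci2, Hadha, which encodes a subunit of the mitochondrial trifunctional protein, had 363, 456, 448 and 384 CPM in CUMS ovaries and 314, 300.2, 342 and 274 CPM in control ovaries (log2 fold 0.42 ± 0.08, edgeR adjusted p = 0.00187). Acat1, whose product makes and splits acetoacetyl-CoA, had 218, 273, 281 and 234 CPM in CUMS ovaries and 216, 167, 188 and 164 CPM in control ovaries (log2 fold 0.45 ± 0.10, edgeR adjusted p = 0.00686). In both genes every CUMS library lay above every control. The entry enzyme gene Cpt1a (-0.29 ± 0.15) and the transferase gene Cpt2 (-0.31 ± 0.14) did not pass. The count was 4 without CUMS 2, without CUMS 3, without control 2 and without control 4. Of the 11 genes with a higher fold in 2M-12W than in 2M-8W 3 belong to this group, and its median fold was -0.11 in 2M-8W, 0.03 in 6M-8W and 0.11 in 6M-12W.

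Of 23 genes of cytokine receptors, STAT factors and the signalling around them 14 fell and 0 rose, with a median log2 fold of -0.62. Among all genes 4.15% were lower and 2.58% higher. Il4ra, the interleukin 4 receptor gene, had 67.6, 77, 60.2 and 78.5 CPM in CUMS ovaries and 113, 167, 93.2 and 130.1 CPM in control ovaries (log2 fold -0.83 ± 0.14, edgeR adjusted p = 0.00125). Osmr, the oncostatin M receptor gene, had 19.05, 16.8, 16.6 and 15.7 CPM in CUMS ovaries and 20.9, 48.3, 25.02 and 35.4 CPM in control ovaries (log2 fold -0.93 ± 0.19, edgeR adjusted p = 0.00471), and Il6ra 14.3, 13.4, 10.3 and 10.8 CPM in CUMS ovaries and 17.1, 25.2, 15.8 and 25.1 CPM in control ovaries (log2 fold -0.77 ± 0.16, edgeR adjusted p = 0.0062). Stat3 (-0.52), Stat5a (-0.63), Stat5b (-0.40) and Stat6 (-0.30) fell, whereas Stat2 (0.59), highest in CUMS 1, did not pass. The count was 4 without control 2, 6 without CUMS 3, 8 without control 4 and 9 without CUMS 2 or CUMS 4.

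Of 24 actin cytoskeleton genes 15 fell and 0 rose, against 4.15% lower and 2.58% higher among all genes, with a median of -0.34. In 14 of 24 all CUMS libraries lay below all controls, against 5.74% of all genes. Tagln2, a transgelin gene, had 63, 47.6, 44.4 and 42.4 CPM in CUMS ovaries and 76.5, 144, 92.5 and 129 CPM in control ovaries (log2 fold -1.16 ± 0.20, edgeR adjusted p = 0.00131), and the tropomyosin gene Tpm4 had 277, 268, 242 and 291 CPM in CUMS ovaries and 382, 583, 323 and 513 CPM in control ovaries (log2 fold -0.74 ± 0.14, edgeR adjusted p = 0.00314). Actb (-0.39 ± 0.19) and Actg1 (-0.30 ± 0.26) themselves did not pass. The count was 6 without control 2, 8 without CUMS 3 and 9 without CUMS 4 or control 4.

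Mast cell transcripts were low throughout. Cpa3, a mast cell carboxypeptidase gene, had 1.82, 1.17, 1.67 and 1.59 CPM in CUMS ovaries and 3.86, 4.72, 4.99 and 3.37 CPM in control ovaries (log2 fold -1.44 ± 0.34, edgeR adjusted p = 0.0123). Tpsb2, a tryptase gene, had 3.05, 2.10, 2.08 and 2.50 CPM in CUMS ovaries and 3.52, 5.66, 7.20 and 5.03 CPM in control ovaries (log2 fold -1.13 ± 0.34, edgeR adjusted p = 0.0445), and its call was lost without any 1 of 6 libraries (adjusted p 0.0801 to 0.139). Fcer1a, a chain of the IgE receptor, was seen in 1 of 4 CUMS libraries and in all 4 controls, with 0 to 0.192 CPM in CUMS ovaries and 0.429 to 1.04 CPM in controls (edgeR adjusted p = 0.00575). In each of the 3 the groups did not overlap. In this list 3 of 8 genes fell, against 4.15% lower among all genes, and Kit, which mast cells also carry, rose. The number that fell was 1 without control 2.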
